A study of Mus musculus with 9 samples.

Results

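Expression of Cytip, the cytohesins Cyth1 to Cyth4 and the leukocyte genes Plek, Ptprc and Lcp2 was examined in mouse liver after early-life pulsed antibiotic treatment (PAT). These are 8 of the 18193 genes that the arrays measured with a probe set of 1 named gene, and 16 such probe sets read them. Cytip was chosen by its values in the comparisons with control, where it was higher with both antibiotics, so its differences from control are given as a description, with no test. The other 7 genes were picked as its binding partners or as genes of leukocytes. The question was whether Cytip follows the general leukocyte genes from array to array.

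Liver RNA of female C57BL/6J mice was hybridized to 9 Affymetrix whole-genome mouse arrays, 3 each from control, amoxicillin and tylosin mice. The antibiotics were given in the drinking water in 3 pulses, on days 10 to 15, 28 to 31 and 37 to 40 of life, with amoxicillin at 0.167 mg/ml for 25 mg/kg/day and tylosin at 0.333 mg/ml for 50 mg/kg/day. The first pulse came before weaning, and by the paper's account the earliest dose reached the pups in the milk of their mothers. Control mice received no antibiotic, and all groups, controls included, ate high-fat chow after the last pulse. The livers were taken at an age of 22 weeks by the account of the experiment, whereas the sample labels give 24 weeks, long after the last dose in either case. Littermates shared a cage and a treatment, and the litter of each array is not given, so the p-values measure only the spread between these samples.

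Cytip encodes a scaffold protein of lymphocytes and dendritic cells that binds cytohesins. Cytohesins load GTP onto ARF GTPases at the membrane, and in leukocytes they promote integrin-mediated adhesion, which Cytip binding curbs. Ptprc is CD45, the phosphatase on the surface of nearly all nucleated blood cells, Lcp2 is the adaptor SLP-76 downstream of antigen receptors, and Plek is pleckstrin, a protein kinase C substrate of platelets and myeloid cells.

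The 250 bases before the annotated start of Cytip and of the 3 leukocyte genes are shown because the question is whether these genes move together. They are RefSeq sequences on build GRCm38.p6, 5′ to 3′ on the strand of each gene, and capitals mark GAGGAA, a core of sites for ETS family factors such as PU.1, or its reverse complement TTCCTC. The windows are chr2:58160123-58160372 on the minus strand for Cytip, chr1:138175306-138175555 on the minus strand for the first of the 2 starts of Ptprc, chr11:17008719-17008968 on the minus strand for Plek and chr11:34046678-34046927 on the plus strand for Lcp2.
Cytip: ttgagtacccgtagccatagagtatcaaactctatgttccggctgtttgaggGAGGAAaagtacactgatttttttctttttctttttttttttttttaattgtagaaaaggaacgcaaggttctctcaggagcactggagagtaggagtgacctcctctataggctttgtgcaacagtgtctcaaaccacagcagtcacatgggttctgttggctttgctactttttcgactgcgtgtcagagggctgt
Ptprc: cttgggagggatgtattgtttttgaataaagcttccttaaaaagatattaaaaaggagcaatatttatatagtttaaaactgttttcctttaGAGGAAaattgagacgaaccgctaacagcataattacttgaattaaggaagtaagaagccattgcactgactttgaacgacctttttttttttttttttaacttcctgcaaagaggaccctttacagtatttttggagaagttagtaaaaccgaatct
Plek: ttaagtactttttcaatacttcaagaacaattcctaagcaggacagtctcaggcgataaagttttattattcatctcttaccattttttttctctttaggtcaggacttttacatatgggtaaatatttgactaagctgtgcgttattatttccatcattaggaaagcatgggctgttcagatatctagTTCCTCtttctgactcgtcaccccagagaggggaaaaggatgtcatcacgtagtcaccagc
Lcp2: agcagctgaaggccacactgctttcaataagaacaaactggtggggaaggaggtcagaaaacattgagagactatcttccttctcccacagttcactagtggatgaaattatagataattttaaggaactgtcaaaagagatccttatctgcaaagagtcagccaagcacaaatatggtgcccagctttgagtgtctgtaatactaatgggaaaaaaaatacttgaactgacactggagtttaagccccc
The letters occurred once in the window of Cytip, 198 bases before the start, once in that of Plek, 61 bases before it, and once in that of Ptprc, 158 bases before it. The Lcp2 window held none, nor did that of the second start of Ptprc, which is not shown. Of the windows of the cytohesins, that of Cyth3 and 1 of the 3 of Cyth1 held the letters, and those of Cyth2 and Cyth4 did not. As 7639 of 32851 promoter windows of the mouse annotation, or 23.3%, hold these letters on one strand or the other, their presence does not set the genes apart.

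Values are log2 expression after robust multi-array average (RMA) normalization, and each gene is represented by its brightest probe set. A call required an unadjusted P below 0.01 from limma together with a log2 fold change of more than 0.5 in size. In each of the 3 comparisons 0 probe sets passed a Benjamini-Hochberg adjusted p of 0.05 with limma, while of 45037 probe sets 6657 had an unadjusted P under 0.05 with amoxicillin, 6722 with tylosin and 1335 between the antibiotics. Some arrays stood apart. The mean log2 level of 15 intestinal mucosa markers was 6.15 in amoxicillin replicate 1, 5.80 in tylosin replicate 2 and 4.08 to 4.52 in the other arrays. The 4.52 was that of tylosin replicate 1, where the marker Reg3b was at 7.75. Reg3b was at 10.18 and 9.72 in the first 2 arrays and at 2.67 to 3.15 in the rest. Muc2, another marker, was at 3.53 in tylosin replicate 1, within the 3.19 to 3.65 of the rest. Tylosin replicate 3 had the lowest Clec4f, the Kupffer cell lectin, at 7.50 where the other arrays had 9.20 to 9.66, and the highest Marco, a macrophage scavenger receptor, at 10.95. Hepatocyte markers averaged 12.70 to 13.04 in all 9 arrays. The antibiotics are compared below with the same 3 control arrays.

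Cytip was higher than control in every amoxicillin and tylosin array. In the control arrays its level at probe set 1435697_a_at, the brightest, was 4.95, 4.36 and 5.37. It was 5.89, 6.56 and 5.65 in the amoxicillin arrays and 6.86, 6.50 and 5.83 in the tylosin arrays. Every antibiotic array lay above every control array, and the nearest values were those of control replicate 3 and amoxicillin replicate 3, at 5.37 and 5.65. The group means were 4.90 ± 0.51 for control, 6.03 ± 0.47 for amoxicillin and 6.39 ± 0.52 for tylosin (SD, n = 3 each). The log2 fold change was 1.14 with amoxicillin (SE 0.32, a 2.20-fold level) and 1.50 with tylosin (SE 0.32, 2.83-fold). Among all genes, 14 had a larger increase with amoxicillin and 5 with tylosin.

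The order of Cytip levels was thus control, amoxicillin, tylosin, and the upper neighbours were not distinguished. The difference of tylosin from amoxicillin, which did not enter the choice of the gene, was 0.36 on the log2 scale with a 95% interval of -0.34 to 1.07 (limma, unadjusted p = 0.28, adjusted p = 1). Amoxicillin replicate 2 lay above tylosin replicates 2 and 3, so the groups overlapped. The size of the amoxicillin difference depended on single arrays, as it was 0.87 both without control replicate 2 and without amoxicillin replicate 2. Averaged over the 3 probe sets of the gene, the differences from control were 0.58 with amoxicillin and 0.86 with tylosin.

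**Figure D1:**
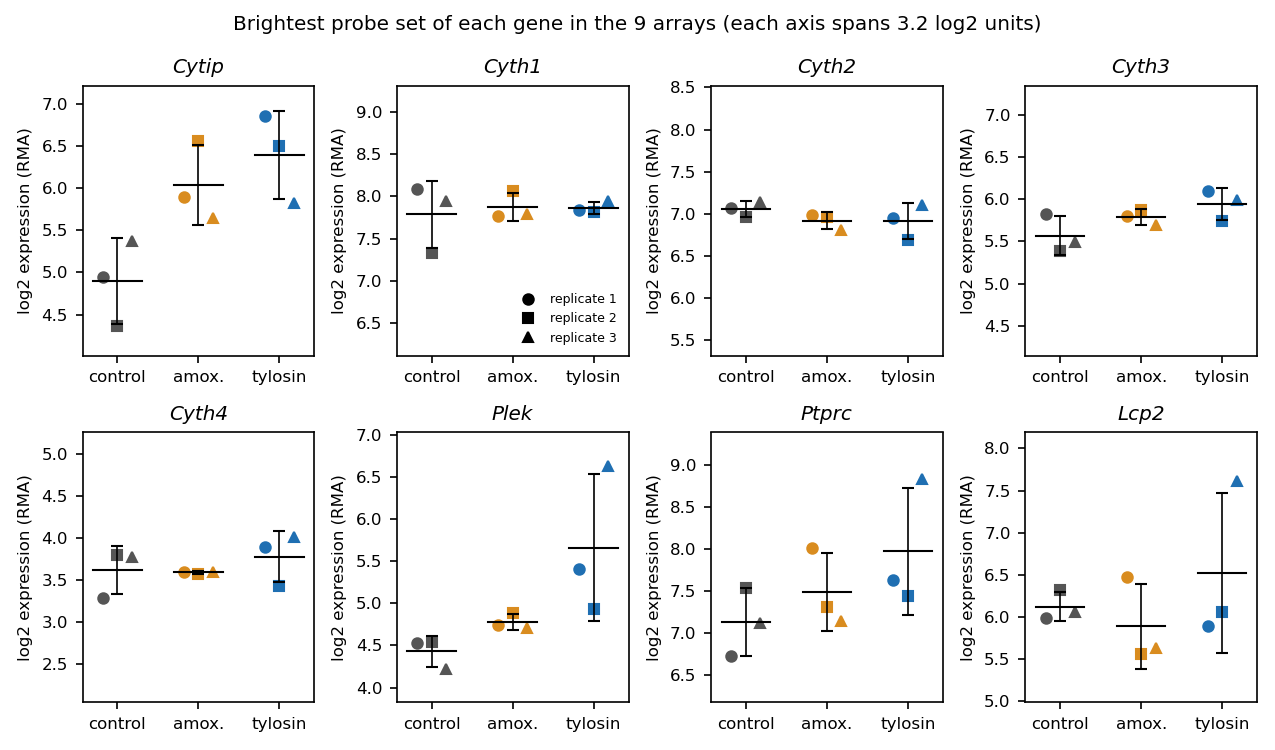
The log2 expression (vertical axes, each spanning the same range) of the brightest probe set of each of the 8 genes in the control, amoxicillin and tylosin arrays. Symbols are replicates 1 to 3, bars are the mean and SD of 3 arrays. Cytip lies at 4.36 to 5.37 in control arrays and at 5.65 or above with the antibiotics, while Plek, Ptprc and Lcp2 are highest in tylosin replicate 3.

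The array holds 2 further probe sets for Cytip, and they did not behave alike. Probe set 1451206_s_at read 4.36, 4.59 and 4.77 in the control arrays, 5.01, 5.66 and 4.79 with amoxicillin and 6.05, 5.78 and 5.03 with tylosin. Within each antibiotic group the arrays had the same order as at the brightest probe set, with amoxicillin replicate 2 and tylosin replicate 1 highest, and the lowest amoxicillin value, 4.79, was barely above the highest control value. The log2 fold changes were 0.58 with amoxicillin and 1.05 with tylosin (SE 0.27 each), below those of the brightest probe set. The r of these 2 probe sets over the 9 arrays was 0.920, a description only, since both read 1 gene in the same libraries.

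Probe set 1443928_at stayed between 3.73 and 4.24 in all 9 arrays, where the array medians were 3.96 to 4.06, and its log2 fold changes were 0.02 with either antibiotic. Values near the array median may carry mostly background. For tylosin against amoxicillin the difference was 0.47 for 1451206_s_at (limma, unadjusted p = 0.11, adjusted p = 1), with tylosin replicates 1 and 2 above all amoxicillin arrays. Without tylosin replicate 3 it was 0.77 and was called.

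The cytohesins, which Cytip binds, were not called in any comparison. Cyth1, the cytohesin best known for integrin adhesion in leukocytes, was at 8.08, 7.33 and 7.94 in control, 7.76, 8.06 and 7.80 with amoxicillin and 7.84, 7.82 and 7.95 with tylosin. The control arrays spanned the values of both antibiotic groups. Its log2 fold changes were 0.09 and 0.08 (SE 0.17 each), with limma's adjusted p = 0.84 and 0.85, and their sign turned under quantile normalization and when all probe sets of the gene were averaged. A dim probe set of the gene, 1448997_at, gave -0.26 and -0.23.

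Cyth2, the broadly expressed ARNO, was at 7.07, 6.97 and 7.15 in control, 6.99, 6.97 and 6.80 with amoxicillin and 6.95, 6.69 and 7.11 with tylosin. Values of the 3 groups overlapped, and both antibiotics gave a log2 fold change of -0.14 (SE 0.12, limma, adjusted p = 0.59 and 0.58). Cyth4, the cytohesin found mostly in blood cells, stayed at 3.29 to 4.01, at or below the array medians, with log2 fold changes of -0.03 for amoxicillin and 0.16 for tylosin. The first turned positive, to 0.02 and 0.04, under median centring and quantile normalization.

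Cyth3, or GRP1, which binds the lipid product of PI3 kinase, was the cytohesin with the largest difference. Its brightest probe set read 5.82, 5.38 and 5.49 in control, 5.80, 5.87 and 5.70 with amoxicillin and 6.10, 5.74 and 5.99 with tylosin. Tylosin replicates 1 and 3 lay above every control array, whereas tylosin replicate 2 lay below control replicate 1. The log2 fold change was 0.22 (SE 0.13) with amoxicillin and 0.38 (SE 0.13) with tylosin (limma, unadjusted p = 0.017, adjusted p = 0.26), under the size needed for a call. It was 0.50 and was called without control replicate 1. The other probe set, 1431707_a_at, gave 0.00 with amoxicillin and -0.14 with tylosin.

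Plek was the only member besides Cytip that was called. Its brightest probe set was at 4.53, 4.54 and 4.22 in control, 4.75, 4.89 and 4.71 with amoxicillin and 5.41, 4.94 and 6.63 with tylosin. All antibiotic arrays lay above all control arrays, and tylosin replicate 3 lay more than a log2 unit above the next array. The log2 fold change was 0.35 (SE 0.33) with amoxicillin, which was not called (limma, adjusted p = 0.63). With tylosin it was 1.23 (SE 0.33), a 2.34-fold level, called at an unadjusted P of 0.0035 with limma's adjusted p = 0.19 and higher in 3 of 3 arrays. Tylosin exceeded amoxicillin by 0.88 (95% interval 0.15 to 1.60, limma, unadjusted p = 0.022, adjusted p = 1).

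Tylosin replicate 3 set much of this size, as the log2 fold change of Plek with tylosin was 0.74 without it and still called. The call was lost without control replicate 3, where the value was 1.12, and at 0.64 when all probe sets of the gene were averaged. The second probe set, 1448749_at, was at 3.57 to 4.07 in 8 arrays and at 5.78 in tylosin replicate 3. Its log2 fold change with tylosin was 0.68, and 0.10 without that array. The third, 1417523_at, stayed at 3.72 to 4.42, with its highest value again in tylosin replicate 3.

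Ptprc (CD45) was at 6.73, 7.54 and 7.12 in control, 8.01, 7.31 and 7.15 with amoxicillin and 7.64, 7.44 and 8.83 with tylosin. Amoxicillin replicate 1 and tylosin replicate 3 stood above their groups, and each antibiotic group overlapped the controls. The log2 fold change was 0.36 (SE 0.35) with amoxicillin and 0.84 (SE 0.35) with tylosin, where limma gave an unadjusted p = 0.038 and an adjusted p = 0.31. Without tylosin replicate 3 the tylosin value was 0.41. The dim probe set 1440165_at, at 2.72 to 3.24, was also highest in that array.

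Lcp2 (SLP-76) was at 5.98, 6.32 and 6.06 in control, 6.47, 5.56 and 5.64 with amoxicillin and 5.89, 6.06 and 7.61 with tylosin. Again amoxicillin replicate 1 and tylosin replicate 3 stood highest in their groups, while the other antibiotic arrays lay within the control range or below it. The log2 fold change was -0.23 (SE 0.39) with amoxicillin and 0.40 (SE 0.39) with tylosin (limma, adjusted p = 0.81 and 0.65), and the latter turned to -0.14 without tylosin replicate 3. Probe set 1418642_at read 3.51 to 4.33, with the same array highest.

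**Figure D2:**
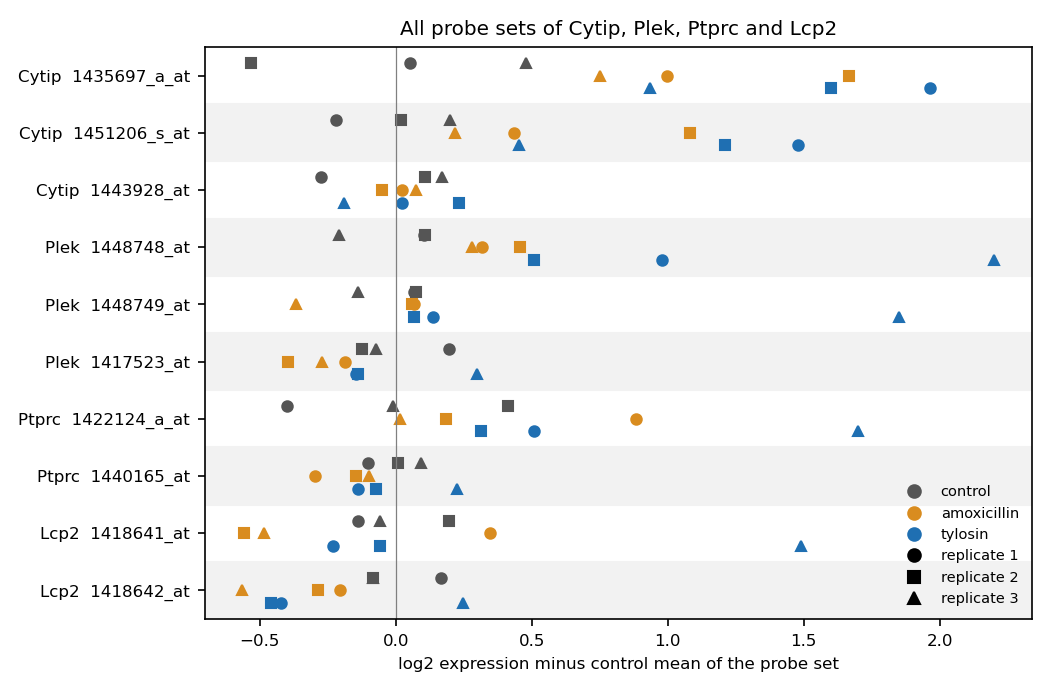
The log2 expression of each of the 10 probe sets of Cytip, Plek, Ptprc and Lcp2 minus its control mean (horizontal axis), with 1 symbol per array, coloured by group and shaped by replicate. The first pair of Cytip rows is highest in tylosin replicate 1, whereas every row of Plek, Ptprc and Lcp2 is highest in tylosin replicate 3.

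Of the 16 member probe sets, 1 was called higher with amoxicillin, that of Cytip, and 3 with tylosin, 2 of Cytip and 1 of Plek. Over the whole array, 0.993% of probe sets were called higher with amoxicillin and 1.03% with tylosin. The calls of Cytip come from the contrasts that chose it and are a description only, and the 13 probe sets of the other genes held 0 calls with amoxicillin and 1 with tylosin. At an unadjusted P under 0.05, limma gave 0 and 3 of these 13, beside 6657 and 6722 of all 45037 probe sets. For tylosin against amoxicillin 0 of 16 were called, beside 0.0555% of all probe sets called higher. In that comparison 1 of 16 had an unadjusted P under 0.05, beside 1335 of all probe sets. Groups of brightest probe sets that did not overlap, with the antibiotic above control, were those of Cytip and Plek with both antibiotics, and 9.52% of all genes were so arranged with amoxicillin and 8.21% with tylosin.

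General leukocyte genes were read from a list of 30, of which 28 were measured. Their mean log2 level was 5.98, 6.16 and 6.08 in control, 6.32, 5.99 and 5.89 with amoxicillin and 6.16, 6.05 and 6.99 with tylosin. Tylosin replicate 3 was the one array far from the rest, and the other 8 lay within 5.89 to 6.32. In liver RNA, fewer cells of a type and less RNA per cell cannot be told apart. The highest of the 9 arrays was tylosin replicate 3 for 23 of the 28 genes (82.1%), and for 12.9% of all genes.

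The list held 0 called genes in each of the 3 comparisons. With amoxicillin 10 of 28 lay above control, with a median log2 fold change of -0.04 beside -0.03 over all genes, and 2 had an unadjusted P under 0.05 by limma. With tylosin 23 lay above control, with a median of 0.32 beside -0.01, and 3 had an unadjusted P under 0.05. Of all genes, 0.835% were called higher with amoxicillin, 1.01% with tylosin and 0.0715% with tylosin against amoxicillin. In the same order, 44.6%, 46.7% and 53.4% of all genes lay above 0. An unadjusted P under 0.05 by limma was found for 6657, 6722 and 1335 of all 45037 probe sets. Tylosin against amoxicillin gave 25 of 28 above, a median of 0.31 beside 0.01, and 0 with an unadjusted P under 0.05. Both tylosin medians rested on 1 array: without tylosin replicate 3 they were 0.02 and 0.03, with 16 of 28 genes above control in the first.

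The 3 brightest genes of the list differed in their highest array. Tyrobp, the DAP12 adaptor of myeloid and natural killer cells, was at 9.12, 9.45 and 9.24 in control, 9.47, 8.86 and 8.68 with amoxicillin and 9.24, 8.91 and 9.82 with tylosin. Its groups overlapped, with log2 fold changes of -0.26 and 0.06. Lcp1, the actin bundler L-plastin, had -0.09 and 0.26, and both genes were highest in tylosin replicate 3. Srgn, the proteoglycan serglycin of secretory granules, had -0.01 and 0.23 and was highest in tylosin replicate 1, at 9.23 against 9.10 in replicate 3. None was called (limma, adjusted p = 0.40 to 0.98).

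**Figure D3:**
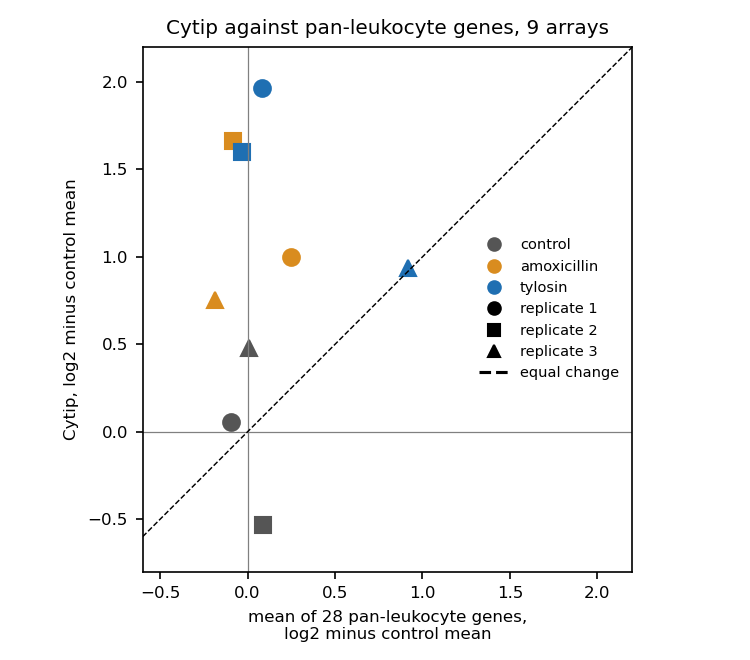
Cytip (vertical axis) against the mean of 28 pan-leukocyte genes (horizontal axis), each as log2 expression minus its control mean, with 1 symbol per array and a dashed line where both changed equally. The 5 antibiotic arrays other than tylosin replicate 3 lie at 0.75 to 1.96 for Cytip and at -0.19 to 0.25 for the list, and tylosin replicate 3 lies near the line at 0.93 and 0.92.

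Cytip and the leukocyte mean were set side by side for each antibiotic array. That Cytip lay above control follows from how it was chosen, so these values only describe the arrays. Relative to the control means, tylosin replicate 1 had Cytip higher by 1.96 and the leukocyte mean by 0.08, and amoxicillin replicate 2 had 1.67 and -0.08. In tylosin replicate 2 the values were 1.60 and -0.03, in amoxicillin replicate 1 they were 0.997 and 0.25, and in amoxicillin replicate 3 they were 0.75 and -0.19. Tylosin replicate 3, with the leukocyte mean higher by 0.92, had Cytip higher by 0.93, the smallest difference of the 3 tylosin arrays.

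The group difference chose Cytip, so the relation was tested on the spread within groups, with group means removed and arrays exchanged only within their group. This allows 216 arrangements and a smallest p of 0.0046. Cytip and the leukocyte mean had r = -0.541 over 9 arrays (two-sided exact permutation p = 0.26, adjusted p = 0.44 over 8 relations) and rho = -0.467 (exact permutation p = 0.31). Without tylosin replicate 3 and amoxicillin replicate 1, the 2 arrays farthest from the median leukocyte level, r was 0.121, and without tylosin replicate 3 alone it was -0.0933. The negative value therefore rested on tylosin replicate 3, and no relation in either direction was established at this number of arrays.

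Single leukocyte genes were tested in the same way. Within groups, the r of Cytip was -0.578 with Ptprc, -0.662 with Lcp2 and -0.516 with Plek over 9 arrays (exact permutation p = 0.17, 0.12 and 0.27, each with an adjusted p = 0.44). With the cytohesins, r was 0.541 for Cyth1, 0.0795 for Cyth2, 0.340 for Cyth3 and -0.233 for Cyth4, with exact permutation p from 0.20 to 0.86. None passed the correction over the 8 relations. Each was also computed without the 2 arrays farthest from the median of the other gene. In that setting r was 0.317 with Cyth1, 0.0381 with Cyth2, 0.362 with Cyth3 and 0.167 with Cyth4. With Ptprc, Lcp2 and Plek it was -0.288, -0.135 and -0.225. Several of the 9-array values rested on tylosin replicate 3. Without that array r was -0.275 with Ptprc, -0.422 with Lcp2 and 0.0472 with Plek, and 0.775 with Cyth1, 0.730 with Cyth2, 0.505 with Cyth3 and 0.0533 with Cyth4 (exact permutation p from 0.056 to 1, before correction).

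Ptprc, by contrast, did follow the leukocyte list within groups. Its r with the list mean was 0.954 and its rho 0.933 over 9 arrays, each with an exact permutation p = 0.0046, the smallest these arrangements can give, and r had an adjusted p = 0.032 over 7 relations. Without tylosin replicate 3 and amoxicillin replicate 1 r was 0.919, and without tylosin replicate 3 alone it was 0.940. The difference between this relation and that of Cytip was not tested. Lcp2 had r = 0.971 (exact permutation p = 0.032, adjusted p = 0.11), which was 0.344 without those 2 arrays and 0.878 without tylosin replicate 3 alone. Plek had r = 0.863 (exact permutation p = 0.12), which was 0.458 without those 2 arrays and 0.131 without tylosin replicate 3 alone. Cyth1 and Cyth3 had r of -0.0428 and 0.0986 with the list, and Cyth2 and Cyth4 had 0.740 and 0.592, none of which passed the exact test (adjusted p from 0.28 to 0.88).

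Markers of lymphocytes were dim in the liver, with 1 of 17 T cell genes and 0 of 11 B cell genes at a mean log2 level over 6, whereas all 14 Kupffer cell markers and 4 of 10 monocyte markers were above it. Of 17 measured T cell markers, 4 lay above control with each antibiotic, with medians of -0.10 and -0.13. B cell markers had medians of -0.13 and -0.01 over 11 genes, and markers of natural killer and cytotoxic cells had -0.08 and 0.01 over 13 genes. Neutrophil markers had -0.20 and -0.08 over 10 genes, and those of platelets, where Plek is also expressed, had -0.13 and -0.08 over 9 genes. Monocyte markers had -0.07 with amoxicillin and 0.24 with tylosin, with 9 of 10 genes above control, and 0.06 without tylosin replicate 3.

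Dendritic cell and maturation markers, the class in which Cytip is known to be induced, had medians of -0.01 and 0.12 over 17 genes with 0 called. With amoxicillin 8 lay above control and 9 below, and with tylosin 11 above and 6 below. By limma, 1 gene with amoxicillin, which was lower, and 3 with tylosin, all higher, had an unadjusted P under 0.05. Of all 45037 probe sets, 6657 and 6722 had such a P, in either direction. Without tylosin replicate 3 the tylosin median was 0.00. Cd83, a maturation marker of that list, named here after its values were seen, was at 5.06, 5.33 and 5.12 in control, 5.47, 6.58 and 5.22 with amoxicillin and 6.48, 5.92 and 5.53 with tylosin. Amoxicillin replicate 2 and tylosin replicates 1 and 2 held its highest values, as they did for Cytip. Its r with Cytip over the 9 arrays, 0.820, was the highest of the 17 genes of the list, which had a median of 0.0366 and 9 genes above 0. The lowest of the list was -0.787. The liver endothelium markers had a higher median, 0.361, and a highest r of 0.837. The difference from control that chose Cytip enters these r values, so they only describe the arrays. Kupffer cell markers had medians of -0.10 and -0.03 over 14 genes with 0 called. Their mean level was 8.56 to 9.13 in control, 8.54 to 9.24 with amoxicillin and 8.77 to 8.99 with tylosin. Single Kupffer cell markers moved both ways with tylosin, from -0.70 to 0.85. Of the 14, 5 (35.7%) were highest in tylosin replicate 3, beside 12.9% of all genes. Without that array the tylosin median was 0.05.

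**Figure D4:**
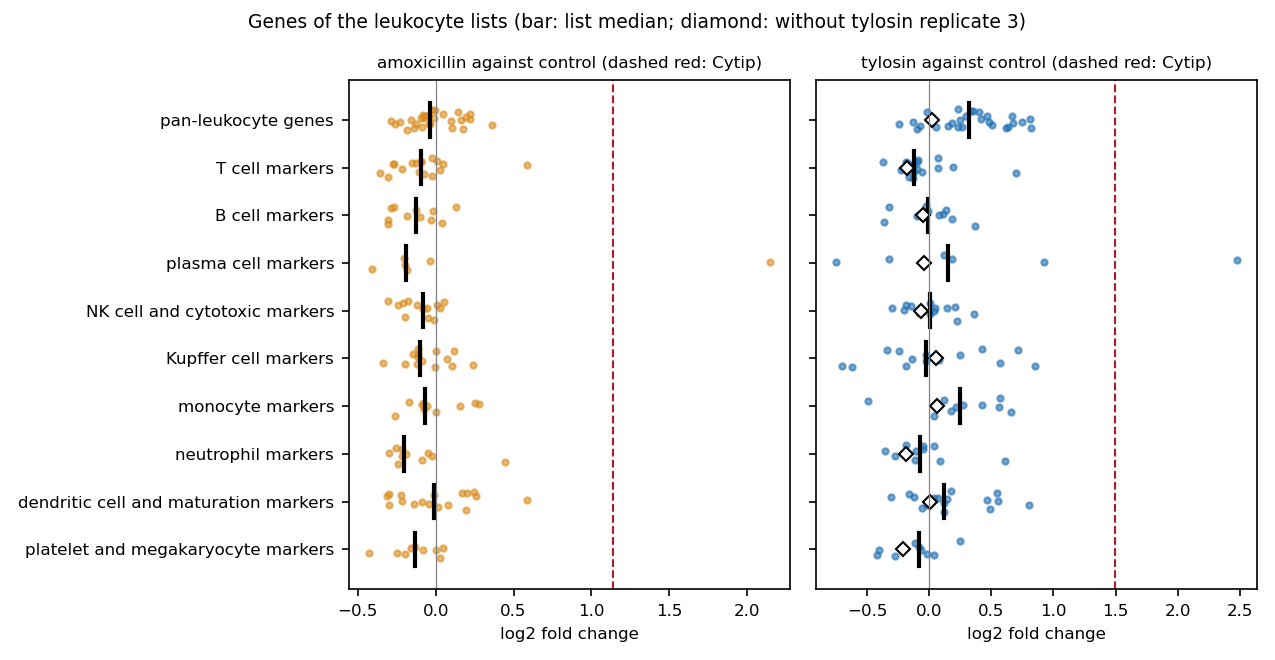
Log2 fold changes (horizontal axes) of the genes of 10 leukocyte lists with amoxicillin (left) and tylosin (right) against control, 1 point per gene. Black bars are list medians, open diamonds are the tylosin medians without tylosin replicate 3, and dashed lines are Cytip at 1.14 and 1.50. The pan-leukocyte median moves from 0.32 to 0.02 when tylosin replicate 3 is left out.

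Few genes of these lists were called. Zap70, the kinase of the T cell receptor, was at 7.62, 7.82 and 7.50 in control, 8.31, 8.26 and 8.11 with amoxicillin and 8.06, 8.51 and 8.45 with tylosin, so each antibiotic group lay above control. Its log2 fold changes were 0.58 and 0.70 (SE 0.13 each, limma, adjusted p = 0.20 and 0.18). Averaged over all its probe sets they were 0.10 and 0.14 and were not called, and it was the only called gene of the T cell list. Cd14, a receptor for lipopolysaccharide on monocytes and macrophages, was called higher with tylosin at 0.66 (limma, adjusted p = 0.22), and Derl3, an endoplasmic reticulum protein of plasma cells, was called lower with tylosin at -0.75 (limma, adjusted p = 0.22), as were 0.44% of all genes. Of 20 alternatives, 12 ended the call of Cd14 and 11 that of Derl3. Those that asked for an adjusted p under 0.05 or a change of over 1 in size had to end both. Jchain, the joining chain of secreted antibody, was named after its values were seen. It was at 10.25 in amoxicillin replicate 1 and 8.36 in tylosin replicate 2, the arrays with the highest mean of mucosa markers. In the others it was at 4.17 to 6.90.

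Genes of the Cytip pathway were also counted. Of all genes, 44.6% lay above control with amoxicillin and 46.7% with tylosin, and 0.835% and 1.01% were called higher. Of 35 measured ARF GTPases and regulators, 22 lay above control with each antibiotic, with medians of 0.03 and 0.06. Without tylosin replicate 3, 18 of the 35 did so with tylosin. Asap2, an ARF GTPase activating protein, was the only one called, at 0.94 with amoxicillin (limma, adjusted p = 0.25), and had 0.40 with tylosin. Of 18 genes of leukocyte integrin adhesion, 10 lay above control with amoxicillin and 15 with tylosin, with medians of 0.05 and 0.17. Without tylosin replicate 3, 12 of the 18 lay above control with tylosin, with a median of 0.16. Of the 18, 8 (44.4%) were highest in that array, beside 12.9% of all genes. Rassf5, a RAP1 effector that activates integrins, was called with amoxicillin at 0.55 (limma, adjusted p = 0.21) and was 0.49 with tylosin, just under the size of a call. Vcam1, the endothelial ligand of an integrin, was called with tylosin at 0.76 (limma, adjusted p = 0.22). Of 18 genes of antigen receptor adaptor signalling, 6 and 9 lay above control, and 8 with tylosin when tylosin replicate 3 was left out. Cbl, a ubiquitin ligase, was called with tylosin at 0.57 (limma, adjusted p = 0.22). Of 20 alternatives, 7 ended the call of Rassf5, 11 that of Asap2, 11 that of Vcam1 and 14 that of Cbl. Those that asked for an adjusted p under 0.05 or a log2 fold change over 1 had to end each call.

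The genes with the pattern most like that of Cytip were named by their values over all arrays. Among genes with a mean log2 level over 6, Pearson's r with Cytip over the 9 arrays was highest for Clk4 (0.956), a kinase of splicing factors. It was followed by the zinc finger genes Zfp612 (0.945) and Zfp367 (0.938), the GTPase gene Gpn1 (0.935) and the copine gene Cpne1 (0.923). Sall1 (0.920), a transcription factor, Hook3 (0.915), a microtubule adaptor, Prkar1a (0.912), a regulatory subunit of protein kinase A, Lmo7 (0.912) and Tada1 (0.902), a subunit of a histone acetyltransferase complex, made up the 10. The difference from control that chose Cytip enters these values, so genes higher with both antibiotics are favoured, and the points share libraries. With group means removed, r of these 10 genes with Cytip was 0.663 to 0.892. The spread within groups also entered the r that picked them, so this range is no separate check.

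None of the 10 stood in any of the 21 lists, but only genes with a mean log2 level over 6 could enter. Of the 28 pan-leukocyte genes 11 had that level. Among all 18192 other genes, no gene of the pan-leukocyte list was among the 100 most like Cytip. The same held for each of the 21 lists, so this does not set the leukocyte genes apart. Over the pan-leukocyte list r had a median of 0.00735, beside -0.0610 over all genes. The highest was 0.554 for Laptm5, a lysosomal protein of leukocytes. As the group difference enters r, this describes the arrays and does not bear on the relation within groups. Clk4 was at 6.84, 6.84 and 6.96 in control, 7.20, 7.25 and 7.05 with amoxicillin and 7.47, 7.32 and 7.07 with tylosin. Its group order and the place of tylosin replicate 1 at the top and tylosin replicate 3 at the bottom of its group were those of Cytip, over a smaller range. The choice of the 10 is not firm, as 2 to 7 of them stayed among the 10 when single arrays were left out and 1 when all probe sets of a gene were averaged.

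RNA quality followed this pattern only in part. The log2 difference of the Actb control probe sets at the 3′ and the 5′ end of the transcript, which grows as RNA is degraded, was 1.29, 1.39 and 1.40 in control, 1.57, 1.39 and 1.57 with amoxicillin and 1.49, 1.73 and 1.21 with tylosin. Of the 3 arrays with the highest Cytip, tylosin replicates 1 and 2 had 1.49 and 1.73 and amoxicillin replicate 2 had 1.39, a value of the control arrays. Its part in the Cytip difference was not tested.

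**Figure D5:**
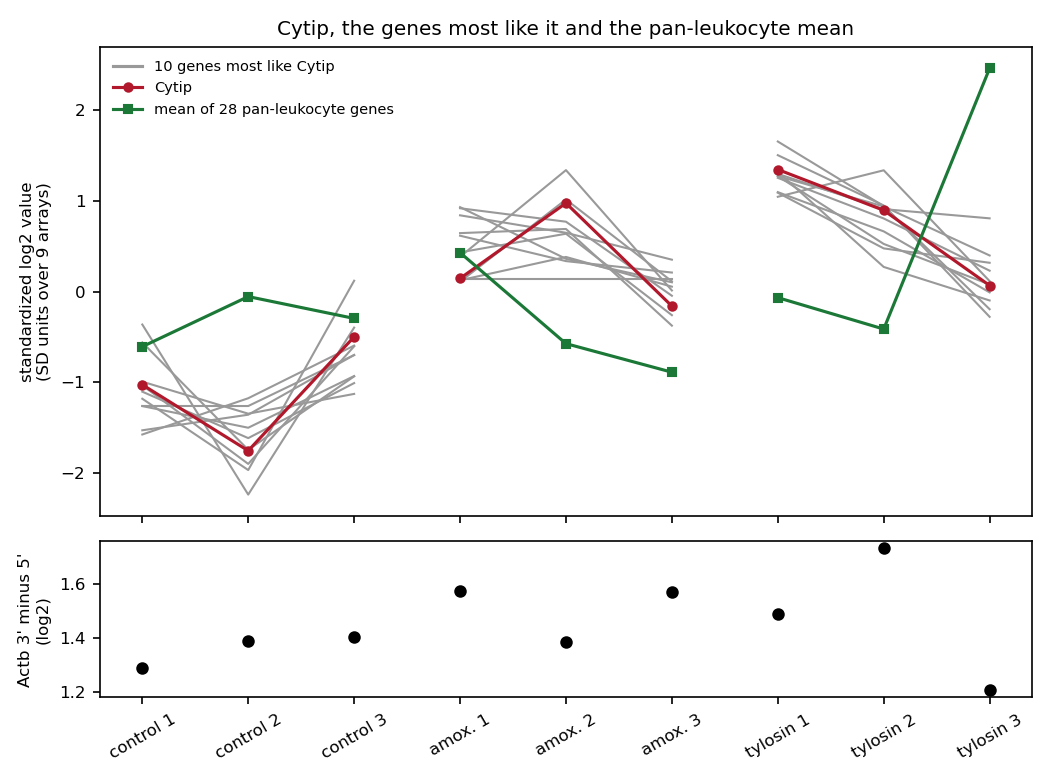
Standardized log2 values (upper vertical axis, in SD units over the 9 arrays) of Cytip, the 10 genes most like it and the mean of 28 pan-leukocyte genes, and the 3′ minus 5′ difference of the Actb controls (lower vertical axis, log2), for each array. Lines join the arrays of a group only. Cytip and each of the 10 genes have their lowest value in a control array, and the leukocyte mean peaks in tylosin replicate 3.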

How the data were processed

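Liver RNA was hybridized to 9 arrays, 3 per group, and the authors deposited log2 values normalized by RMA with the affy package, with versions not given in the sources used here. Scanner files were left aside. Of 45101 probe sets, 64 manufacturer's controls were left out, 34945 of the remaining 45037 carried 1 gene symbol in the platform annotation, 932 carried several and 9160 were unnamed. One further probe set of Cyth1 is shared with another gene and was not used. Brightest means the highest mean over the 9 arrays. limma 3.58.1 in R 4.3.3 was fitted once to all 9 arrays, and the thresholds of a call are those of the study's methods. Within-group relations were tested by enumerating all arrangements of arrays within groups. The members, the 21 lists (294 genes, 269 measured, matched by symbol) and the tests were chosen with earlier results of these data known. Named were all members, called genes of the lists, the 3 brightest pan-leukocyte genes, the 10 genes most like Cytip, and markers of arrays that stood apart. Cd83, Jchain and Laptm5 were named after their values were seen, and the brightest genes of the other lists were left out. Fitting without both arrays with the highest mean of mucosa markers was an alternative chosen with those results known. The procedure was tested on simulated data. Promoter windows came from RefSeq annotation of GRCm38.p6. Replicate numbers were not used to pair arrays. The number of arrays limits the precision of every value. Figures were drawn with matplotlib 3.10.9 in Python 3.11.15.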

Additional observations from a re-analysis of the deposited data

Results flagged for a closer look

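Cd14, a monocyte marker, was picked as the only gene of the members and the lists that was called for tylosin against amoxicillin. Of all genes, 0.0715% were called higher in that comparison. For Cd14, tylosin exceeded amoxicillin by 0.66 on the log2 scale (SE 0.20, limma, unadjusted p = 0.0079, adjusted p = 1). Tylosin was at 7.43, 6.81 and 7.35 and amoxicillin at 6.71, 6.71 and 6.19, with 3 of 3 tylosin arrays above all amoxicillin arrays. Of 20 alternatives 10 ended this call, among them those without control replicates 2 or 3, amoxicillin replicate 3 or tylosin replicates 1 or 3. The alternatives that asked for an adjusted p under 0.05 or a log2 fold change over 1 had to end it. The value ranged from 0.48 to 0.94.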

How the results depend on the processing

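Over the members, 536 of 579 recomputed values kept their direction and their side of the threshold, 16 lost a call, 4 gained one and 23 changed sign. At an adjusted p of 0.05, 0 member probe sets were called with amoxicillin and 0 with tylosin, against 1 and 3, and a filter on dim probe sets, which removes the second Cytip and the Plek probe sets, left 1 with tylosin. Without amoxicillin replicate 1 and tylosin replicate 2 together 0 were called with amoxicillin and 1, of Plek, for tylosin against amoxicillin. Leaving out single arrays gave 0 to 1, 2 to 3 and 0 to 1 called probe sets for amoxicillin, tylosin and their difference. The amoxicillin count, 1 probe set of Cytip, and the tylosin count, with 2 of Cytip, rest on the contrasts that chose the gene, so these changes describe the count: the amoxicillin count was 0 without control replicates 1 or 2 or amoxicillin replicate 2, and 1451206_s_at left the tylosin count without control replicate 1 or tylosin replicates 1 or 2. Calls for tylosin against amoxicillin appeared without tylosin replicate 2 (Plek) or 3 (Cytip 1451206_s_at). Over the alternatives the log2 fold change of Cytip was 0.58 to 1.38 with amoxicillin and 0.86 to 1.78 with tylosin, each lowest for the mean of its probe sets, and that of 1451206_s_at with tylosin was 0.83 to 1.34. Leaving out single arrays moved the pan-leukocyte medians between -0.11 and 0.01 with amoxicillin, 0.02 and 0.48 with tylosin and 0.03 and 0.48 between antibiotics, the lowest of the last pair without tylosin replicate 3, and the r of Cytip with the list between -0.73 and -0.09.

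These values near 0 changed sign. Median centring gave 0.023 for Cyth4 and 0.046 for Srgn with amoxicillin. Quantile normalization gave 0.036 for Cyth4 and -0.012 for Cyth1 with amoxicillin and -0.024 for Cyth1 with tylosin. Array weights gave -0.064 for Tyrobp with tylosin. The mean of all probe sets gave -0.088 for Cyth1, -0.0051 for Plek and 0.10 for Lcp1 with amoxicillin, -0.077 for Cyth1 with tylosin and 0.012 for Cyth1 between antibiotics. Without both arrays with the highest mean of mucosa markers, Cyth2 had 0.15 between antibiotics. Leaving out single arrays gave, with amoxicillin, -0.14 to 0.24 for Cyth1, -0.20 to 0.060 for Cyth4, -0.080 to 0.11 for Srgn and -0.15 to 0.064 for Plek 1448749_at. With tylosin it gave -0.14 to 0.23 for Cyth1, -0.0083 to 0.33 for Cyth4, -0.14 to 0.72 for Lcp2 and -0.19 to 0.26 for Tyrobp, and between antibiotics -0.060 to 0.087 for Cyth1 and -0.10 to 0.11 for Cyth2. The causes were not tested.

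The replicate numbers did not pair the arrays, as 2 of 9 pairs with the same number had residuals correlated above 0.1 (r from -0.25 to 0.15). With the replicate block 1, 3 and 0 member probe sets were called in the 3 comparisons, the pan-leukocyte medians were -0.04, 0.32 and 0.31, r was -0.51 and no member call changed. With 3 arrays per group small differences may be missed, and probe sets near an array median of about 4 cannot be told from background.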
